A study of Mus with 6 samples.

Results

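Neuropeptide precursors, the granins packed with them and the receptors they act on were examined in the hippocampus of mice loaded with forced swim stress (FSS). The genes were taken from a list of 42 symbols, and each was represented by the row of the array table that the annotation gives to that symbol alone, or, where there were several, by the one whose mean level across the 6 arrays was highest. Of the 42 genes, 41 were measured, out of 19938 genes on the array with such a row. They were 21 peptide precursors, 3 granins and 17 receptors. Calca had no row of its own in the annotation and was not analysed here.

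The FSS group consisted of 3 mice that swam for 11 min per day on 5 days, and the control group of 3 mice without FSS. The study's schedule placed a tail suspension test after the swims, and the hippocampus was collected on a later day. The study states that the FSS mice of its array comparison were picked at random from those analysed. All were male C57BL/6JJmsSlc mice of 10 to 11 weeks, a wild-type strain with no transgene. One array of the GeneChip Mouse Gene ST type was hybridised for each mouse, and errors therefore describe how mice of the same group differed. The hippocampus was collected as a whole, so that a smaller number of cells of a type and less RNA per cell cannot be told apart in any value below. The values are log2 levels made by robust multi-array averaging (RMA), on which a difference of 1 is a 2-fold change. Levels of different genes were not set against each other, since each depends on its own probes.

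Neuropeptides are cut from larger precursor proteins inside dense-core vesicles and released mainly during strong or repeated firing. They act on G protein-coupled receptors, often at some distance from the site of release. In the hippocampus, somatostatin, neuropeptide Y, vasoactive intestinal peptide and cholecystokinin mark classes of GABAergic interneurons, whereas granule cells of the dentate gyrus make dynorphin and enkephalin. The granins are acidic proteins of the vesicle core, and secretogranin II is itself cut into peptides.

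For most of the 41 genes the RNA level differed little between the groups, and the peptides themselves were not measured. At an unadjusted p under 0.05 from limma, Grp and Gal were higher in FSS mice, 39 genes did not pass and none was lower. The 2 higher genes are 4.88% of the 41, against a background of 2.49% of all 21789 rows tested, at which 1.02 of 41 genes would pass. In the other direction the background was 2.66%. None reached the study's thresholds of a log2 fold change over 0.5 in size with an unadjusted p under 0.05, which 0.0688% of all rows did, and none passed an adjusted p of 0.05 from limma (Benjamini-Hochberg over all rows), which no row of the table did. The median log2 fold change (FSS minus control) was 0.013 for the 41 genes, and 0.0049 for all rows. It was -0.0075 for the precursors, 0.0034 for the granins and 0.018 for the receptors. Most sizes were small, as they were over the whole array. Of the 41 fold changes, 37 lay within 0.15 of 0, and so did 19801 of the 21789 rows. For 37 of the 41 genes the 95% interval of the difference lay inside the study's threshold of 0.5 on both sides, and for 22 it lay inside 0.25. Over all 21789 rows, 21020 intervals lay inside 0.5 and 14353 inside 0.25. Both are larger shares than among the 41 genes. Of the 41 genes, the 4 whose interval reached past 0.5 were Tac1, Trh, Tacr1 and Cckbr.

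**Figure D1:**
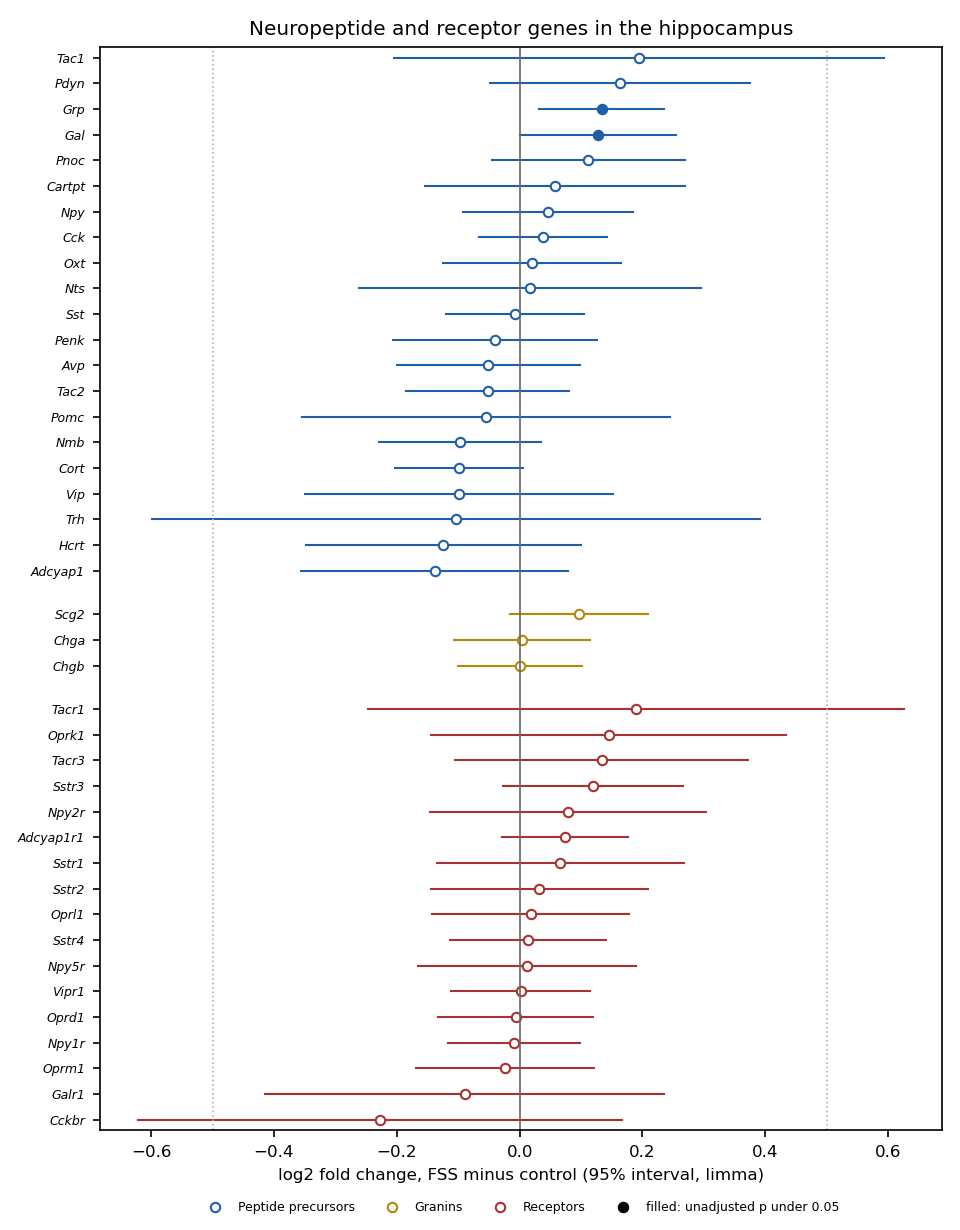
Difference in log2 level between FSS and control mice (FSS minus control, x axis) for the 41 genes (y axis), with 3 mice in each group. Circles are limma estimates, filled at an unadjusted p under 0.05, and lines are 95% intervals; dotted lines mark 0.5 in both directions, and Tac1, Trh, Tacr1 and Cckbr alone have intervals that reach past them.

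Grp (transcript cluster 10456353) encodes gastrin-releasing peptide, a bombesin-like peptide that excites neurons through the receptor Grpr. Its log2 levels were 10.50, 10.49 and 10.45 in FSS mice 1, 2 and 3, against 10.37, 10.30 and 10.36 in control mice. All FSS mice lay above all control mice, and the mice of each group lay close together. The means were 10.48 ± 0.026 in FSS mice and 10.35 ± 0.037 in control mice (SD, n = 3 each), a 1.10-fold difference. The log2 fold change was 0.13 (standard error 0.043, 95% interval 0.032 to 0.23, unadjusted p = 0.017 and adjusted p = 0.943 from limma). It did not pass without FSS mouse 1 (0.12, unadjusted p = 0.0539 from limma) or without control mouse 2 (0.11, unadjusted p = 0.0566 from limma). The RNA of its receptor, Grpr, which was looked up after these values were seen, was at 7.12, 7.11 and 7.21 in FSS mice and at 7.23, 7.09 and 6.93 in control mice, with overlapping groups. The related peptide gene Nmb, neuromedin B, was at 6.84, 7.02 and 6.91 in FSS mice and at 7.04, 7.03 and 7.00 in control mice, and its log2 fold change of -0.097 did not pass. It passed without FSS mouse 2 (-0.14, unadjusted p = 0.026 from limma) and was -0.055 without FSS mouse 1.

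Markers of dentate granule cells differed in the same direction as Grp. All 12 measured markers had a log2 fold change above 0, as 53.0% of all rows did, with a median of 0.10. At an unadjusted p under 0.05 from limma 4 of them (33.3%) were higher, against 2.49% of all rows. They were Prox1, a transcription factor of granule cells (0.15), Stxbp6 (0.15), Trpc6 (0.12) and Plk5 (0.22). Each of the 4 had an adjusted p of 0.943 from limma. The mean log2 level of the 12 markers was 9.55, 9.55 and 9.56 in FSS mice 1, 2 and 3, and 9.53, 9.38 and 9.46 in control mice. Control mouse 2 was the lowest for this mean and for Grp. The part of these markers in the difference of Grp was not tested.

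Gal (transcript cluster 10464471), the precursor of galanin, a peptide that mostly inhibits neurons, was at 6.33, 6.43 and 6.35 in FSS mice, against 6.32, 6.20 and 6.22 in control mice. The groups were separated by a narrow gap between FSS mouse 1 and control mouse 1. The means were 6.37 ± 0.055 in FSS mice and 6.24 ± 0.065 in control mice (SD, n = 3 each). The log2 fold change was 0.13 (standard error 0.053, unadjusted p = 0.0497 and adjusted p = 0.943 from limma), at the edge of the threshold. It did not pass without any 1 of FSS mice 1, 2 and 3 and control mice 2 and 3 (unadjusted p = 0.0549 to 0.141 in limma), and passed without control mouse 1 (unadjusted p = 0.0261 in limma). It also did not pass in the methods' t-test or with a trended and robust variance, array medians subtracted or array weights. The level of Gal is low for this array. The dim limit, the level that 95% of the 1210 rows of olfactory and vomeronasal receptors stay under, was 6.21. Galr1, a receptor of galanin, lay below this limit at 5.43, 4.88 and 5.30 in FSS mice and 5.24, 5.39 and 5.25 in control mice, with overlapping groups.

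In all, FSS mice lay above every control mouse for 4 of the 41 genes, Grp, Gal, Scg2 and Adcyap1r1. This is 9.76% of them, whereas 6.02% of all rows were so placed. FSS mice lay below every control mouse for 1 gene, Cort, and for 4.25% of all rows. With 3 mice a group the smallest p of an exact two-sided permutation test is 0.1, so this separation alone cannot pass the threshold.

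**Figure D2:**
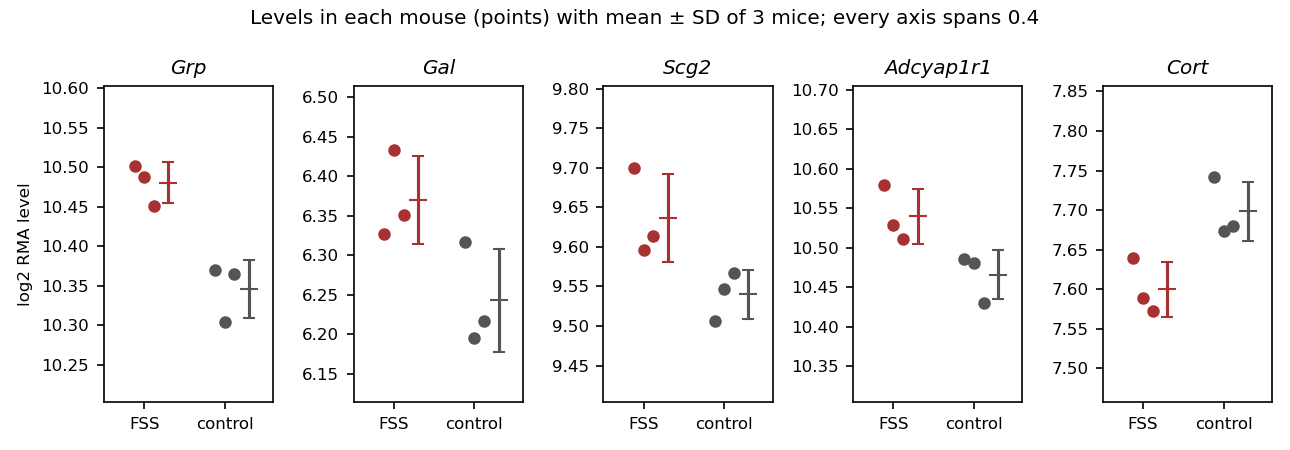
Log2 RMA level (y axis) in FSS and control mice (x axis) of the 5 genes whose groups did not overlap. Points are mice and bars are the mean ± SD of 3 mice; the y axes do not start at 0 but span the same 0.4 for each gene, and the gap is narrowest for Gal.

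Somatostatin and its relative cortistatin are inhibitory peptides of interneurons that share the same receptors. Cort (transcript cluster 10518557), the precursor of cortistatin, was at 7.64, 7.59 and 7.57 in FSS mice, against 7.74, 7.67 and 7.68 in control mice, and so lay below the controls in each FSS mouse. Its means were 7.60 ± 0.035 in FSS mice and 7.70 ± 0.037 in control mice (SD, n = 3 each). The log2 fold change of -0.098 (standard error 0.044, adjusted p = 0.943 from limma) missed the threshold with an unadjusted p of 0.061. It passed in the methods' t-test and, in limma, with quantile normalization (unadjusted p = 0.0337), with array medians subtracted (unadjusted p = 0.0378) and without dim genes (unadjusted p = 0.0446). The fold change was -0.12 to -0.077 without each mouse in turn and passed in none of these fits (unadjusted p = 0.0594 to 0.177 from limma). It also did not pass with a trended and robust variance (unadjusted p = 0.105 from limma). With the replicate number or the array spread as a block it did not pass either (unadjusted p = 0.0663 and 0.086 from limma).

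Sst was at 12.61, 12.58 and 12.60 in FSS mice and at 12.53, 12.66 and 12.62 in control mice. The groups overlapped, and the FSS mice lay within the range of the controls. The log2 fold change of -0.0075 had a 95% interval from -0.12 to 0.11. The receptors of both peptides signal through inhibitory G proteins. Sstr1 was at 8.41, 8.19 and 8.33 in FSS mice and 8.10, 8.36 and 8.28 in control mice, and Sstr2 was at 8.70, 8.59 and 8.63 in FSS mice and 8.45, 8.66 and 8.70 in control mice. Sstr3, which sits on the primary cilium of neurons, was at 8.21, 8.19 and 8.03 in FSS mice and 8.06, 7.97 and 8.04 in control mice. Of the receptors Sstr3 had the largest log2 fold change, 0.12 (unadjusted p = 0.0939 from limma), and FSS mouse 3 alone lay within the range of the controls. Without FSS mouse 3 it was 0.18 (unadjusted p = 0.0178 from limma), and without FSS mouse 1 it was 0.087 (unadjusted p = 0.253 from limma). Sstr4 was at 11.22, 11.22 and 11.21 in FSS mice and 11.30, 11.13 and 11.18 in control mice, so that the FSS mice differed from each other by far less than the controls did.

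Scg2 (transcript cluster 10355960), the gene of secretogranin II, was at 9.70, 9.60 and 9.61 in FSS mice, against 9.51, 9.55 and 9.57 in control mice. Its means were 9.64 ± 0.056 in FSS mice and 9.54 ± 0.031 in control mice (SD, n = 3 each), and the log2 fold change of 0.097 did not pass (standard error 0.047, unadjusted p = 0.0806 from limma). It was 0.065 without FSS mouse 1, which had the highest level, and passed with a trended and robust variance (unadjusted p = 0.0412 from limma). The other granins showed no such gap. Chga, chromogranin A, was at 11.69, 11.59 and 11.67 in FSS mice and 11.61, 11.67 and 11.65 in control mice, with a 95% interval of the log2 fold change from -0.11 to 0.11. Chgb, chromogranin B, was at 11.15, 11.20 and 11.14 in FSS mice and 11.20, 11.16 and 11.13 in control mice, with an interval from -0.10 to 0.10. The fold changes of Chga and Chgb were next to 0 and took the other sign under either rescaling of the arrays.

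Pituitary adenylate cyclase-activating polypeptide (PACAP), encoded by Adcyap1, and vasoactive intestinal peptide, encoded by Vip, are related peptides that raise cyclic AMP. The PACAP receptor gene Adcyap1r1 (transcript cluster 10538482) was at 10.58, 10.53 and 10.51 in FSS mice, against 10.49, 10.48 and 10.43 in control mice. Its groups did not overlap, yet the log2 fold change was only 0.074 and did not pass (standard error 0.043, unadjusted p = 0.129 from limma). Adcyap1 itself was at 7.71, 7.45 and 7.63 in FSS mice and at 7.67, 7.89 and 7.65 in control mice. Its log2 fold change of -0.14 was the lowest of the precursors and did not pass (unadjusted p = 0.175 from limma). FSS mouse 2 had the lowest and control mouse 2 the highest level. Vip was at 7.85, 7.94 and 7.81 in FSS mice and at 7.73, 8.14 and 8.03 in control mice. Control mouse 1 lay far below the other controls. Without it the log2 fold change of Vip was -0.22 (unadjusted p = 0.016 from limma), against -0.099 with all mice and -0.012 without control mouse 2 (unadjusted p = 0.909 from limma). The receptor gene Vipr1 ranged from 8.44 to 8.54 in FSS mice and from 8.45 to 8.53 in control mice. It had 2 rows, and their log2 fold changes were 0.0015 and -0.046.

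**Figure D3:**
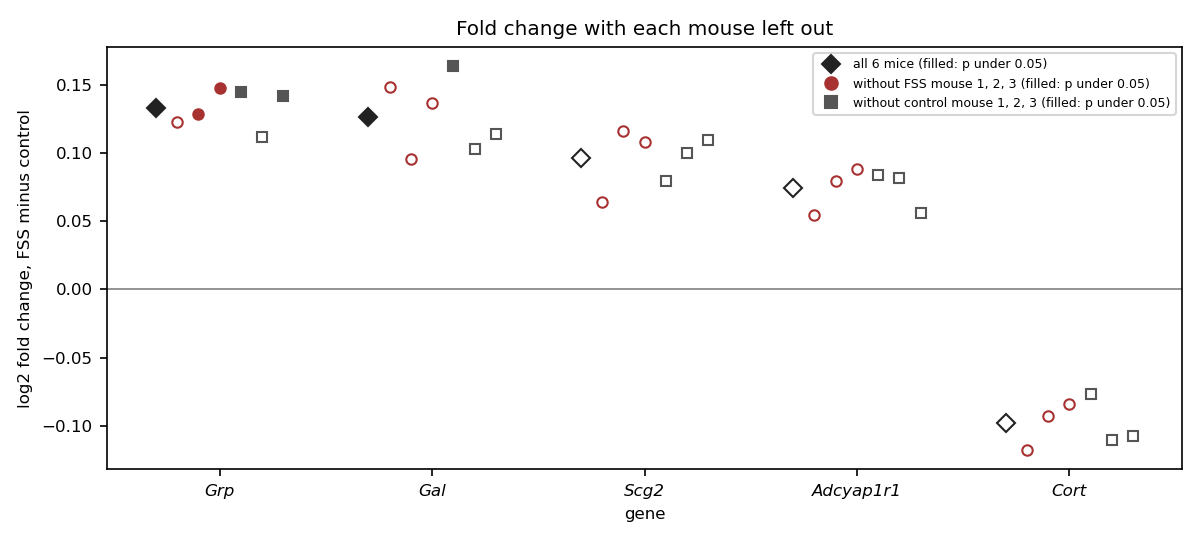
Log2 fold change (FSS minus control, y axis) of the same 5 genes (x axis) with all 6 mice and without each mouse in turn. Symbols are filled at an unadjusted p under 0.05 from limma; every value keeps its sign, and for Grp the values run from 0.11 to 0.15.

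Neuropeptide Y dampens excitatory transmission in the hippocampus, mostly through the presynaptic receptor Npy2r. Npy was at 10.41, 10.48 and 10.56 in FSS mice and at 10.50, 10.44 and 10.37 in control mice. The groups overlapped, and the log2 fold change was 0.046 (95% interval -0.092 to 0.18). Npy2r was at 9.31, 9.30 and 9.35 in FSS mice and at 9.47, 9.12 and 9.14 in control mice. Control mouse 1 was above all FSS mice and the other controls were below them. Without control mouse 1 the log2 fold change of Npy2r was 0.19 (unadjusted p = 0.00831 from limma), against 0.078 with all mice (unadjusted p = 0.435 from limma). Leaving out control mouse 2 gave 0.019, and leaving out control mouse 3 gave 0.025. Npy1r, a mainly postsynaptic receptor, was at 9.02, 9.03 and 9.01 in FSS mice and 8.96, 9.06 and 9.05 in control mice. Npy5r was at 7.35, 7.43 and 7.30 in FSS mice and 7.50, 7.28 and 7.26 in control mice. For both receptors the FSS mice lay inside the range of the controls.

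The opioid genes encode 3 families of peptides, the related peptide nociceptin and their receptors. Of the 8 genes, 4 had a fold change above 0 and 4 below, with a median of 0.0059, and none passed. Pdyn, the precursor of dynorphin, was at 7.09, 7.34 and 7.01 in FSS mice and at 6.99, 7.04 and 6.92 in control mice. FSS mouse 2 stood above all others, and FSS mouse 3 fell between the controls. The log2 fold change of 0.16 was not past the threshold (unadjusted p = 0.109 from limma) and passed without FSS mouse 3 (0.23, unadjusted p = 0.0372 from limma), whereas it was 0.068 without FSS mouse 2 (unadjusted p = 0.296 from limma). It also passed with either block, the replicate number (0.16) or the spread of the arrays (0.23). Penk, the precursor of enkephalin, was at 9.85, 9.77 and 10.02 in FSS mice and at 9.90, 9.97 and 9.88 in control mice. Its lowest and highest values were both in FSS mice. Pnoc, the precursor of nociceptin, was at 7.67, 7.60 and 7.52 in FSS mice and at 7.54, 7.54 and 7.38 in control mice, and overlapped in FSS mouse 3 alone (log2 fold change 0.11, unadjusted p = 0.135 from limma). Pomc, the precursor of beta-endorphin and of melanocortins, was at 6.65, 6.75 and 6.51 in FSS mice and at 6.69, 6.94 and 6.45 in control mice.

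Receptors of the opioid peptides overlapped between the groups in each case. The mu receptor gene Oprm1 was at 6.72, 6.65 and 6.55 in FSS mice and 6.67, 6.72 and 6.59 in control mice. The delta receptor gene Oprd1 was at 8.46, 8.56 and 8.50 in FSS mice and 8.54, 8.57 and 8.44 in control mice. The kappa receptor gene Oprk1, which binds dynorphin, was dim at 5.67, 5.81 and 5.61 in FSS mice and 5.71, 5.28 and 5.67 in control mice. Control mouse 2 alone was low for Oprk1, and without it the log2 fold change was 0.0077 in place of 0.15. The nociceptin receptor gene Oprl1 was at 9.09, 8.99 and 9.01 in FSS mice and 8.89, 9.12 and 9.01 in control mice.

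Cholecystokinin is made by a class of basket interneurons and by pyramidal cells. Cck was at 12.29, 12.29 and 12.32 in FSS mice and at 12.28, 12.21 and 12.30 in control mice, with a log2 fold change of 0.038 (95% interval -0.066 to 0.14). Cckbr, its main receptor in the brain, was at 8.26, 7.86 and 8.14 in FSS mice and at 8.02, 8.62 and 8.30 in control mice. Its log2 fold change of -0.23 was the largest in size of the 41 genes but did not pass (standard error 0.17, unadjusted p = 0.214 from limma), since both groups were spread over more than the difference. It was -0.37 without control mouse 1, where it passed (unadjusted p = 0.0444 from limma), and -0.072 without control mouse 2, the mouse with the highest level.

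Tachykinins are excitatory peptides, with substance P from Tac1 acting on Tacr1 and neurokinin B from Tac2 acting on Tacr3. Tac1 was at 8.25, 7.60 and 7.88 in FSS mice and at 7.51, 7.82 and 7.82 in control mice. FSS mouse 1 was highest and control mouse 1 lowest, and the others overlapped. Its log2 fold change, 0.19, was the highest of the 41 genes and did not pass (standard error 0.17, unadjusted p = 0.285 from limma). Without FSS mouse 1 it was 0.027. Tacr1 was at 7.50, 6.85 and 6.84 in FSS mice and at 6.74, 7.02 and 6.87 in control mice. FSS mouse 1 stood apart from the other 5 mice, and the log2 fold change of 0.19 (unadjusted p = 0.336 from limma) was -0.030 without it. Tacr3 was at 7.32, 7.08 and 7.22 in FSS mice and at 6.87, 7.15 and 7.20 in control mice. Here control mouse 1 was low. Tac2 was at 7.95, 7.88 and 8.05 in FSS mice and at 8.01, 8.05 and 7.98 in control mice, and its groups overlapped.

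Other genes were also highest in FSS mouse 1. Chosen after their values were seen, Zic1, a zinc finger transcription factor known from the septum next to the hippocampus, was at 9.23 in FSS mouse 1, at 7.80 and 8.04 in FSS mice 2 and 3 and at 8.26, 8.13 and 7.80 in control mice. Glp1r, the receptor of glucagon-like peptide 1, also a gene of the lateral septum, was at 9.16 in FSS mouse 1, at 7.77 and 8.07 in FSS mice 2 and 3 and at 7.91, 7.88 and 7.65 in control mice. Ecel1, a membrane peptidase of the endothelin-converting enzyme family, was at 8.95 in FSS mouse 1, at 7.43 and 7.46 in FSS mice 2 and 3 and at 7.53, 8.40 and 7.69 in control mice. Each was highest in FSS mouse 1, as Tac1 and Tacr1 were. So were Zic2 (9.66) and Trhr (8.24), which were chosen in the same way. Because of this choice, their shared place in FSS mouse 1 is no test of a common pattern. FSS mouse 1 was the highest mouse for 21.3% of all rows. Control mouse 2 was above the other control mice for Ecel1 and for Zic2, which was at 9.02, 9.37 and 9.01 in control mice. Of the 13 measured markers of thalamus and habenula, where tachykinin neurons are also found, 2 had a fold change above 0 and 11 below (median -0.039), and none passed in either direction. The mean level of the 13 markers was 7.54, 7.42 and 7.44 in FSS mice and 7.45, 7.56 and 7.48 in control mice, so control mouse 2 was highest. One of the markers above 0, Prkcd, a protein kinase C of thalamic neurons, was at 9.03 in FSS mouse 1. It was at 8.44 and 8.48 in FSS mice 2 and 3 and at 8.56, 8.40 and 8.45 in control mice. FSS mouse 1 stood apart for this marker, and was not the highest for the mean of the list. Of the 9 measured striatal markers, 5 lay above 0 and 4 below, and 1, Rarb, was higher (0.14). That is 11.1% of the 9, against 2.49% of all rows. The part of all these genes in the values of Tac1 and Tacr1 was not tested.

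**Figure D4:**
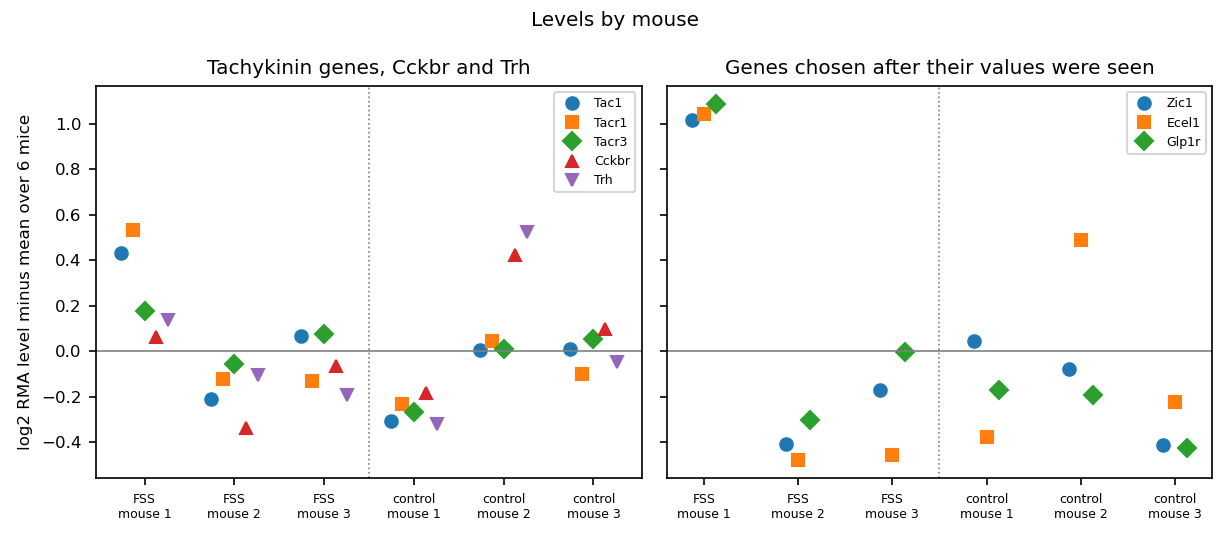
Log2 RMA level minus the mean over the 6 mice (y axis) in each mouse (x axis), for tachykinin genes, Cckbr and Trh on the left and for Zic1, Ecel1 and Glp1r on the right. The 3 genes on the right were chosen after their values were seen. Each symbol is 1 gene in 1 mouse, and FSS mouse 1 is highest for Tac1, Tacr1, Tacr3 and the 3 genes on the right, whereas control mouse 2 is highest for Cckbr and Trh.

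The spread between mice differed among the genes. Trh, the precursor of thyrotropin-releasing hormone, had the largest SD within a group. It was at 6.65, 6.41 and 6.32 in FSS mice and at 6.19, 7.04 and 6.47 in control mice (SD 0.43). Control mouse 2 was the highest of all mice and control mouse 1 the lowest. The log2 fold change of -0.10 was 0.13 without control mouse 2. The pooled SD within groups of Trh, Tacr1, Tac1 and Cckbr exceeded that of 98.2% or more of all rows. At the other end, the pooled SDs of Grp, Chgb, Adcyap1r1, Cck and Cort were under those of all but 9.09% to 12.4% of rows.

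Of the remaining precursors, the groups overlapped for each. Nts, neurotensin, ranged from 6.66 to 6.92 in FSS mice and from 6.54 to 6.95 in control mice. Cartpt, a peptide precursor found in dentate mossy cells, ranged from 6.99 to 7.30 in FSS mice and from 6.98 to 7.13 in control mice. Oxt, Avp and Hcrt encode oxytocin, vasopressin and orexin, which are made by neurons of the hypothalamus. Oxt ranged from 7.61 to 7.71 in FSS mice and from 7.53 to 7.72 in control mice. Avp ranged from 6.43 to 6.65 in FSS mice and from 6.58 to 6.61 in control mice. Hcrt ranged from 6.06 to 6.38 in FSS mice and from 6.21 to 6.41 in control mice. Its log2 fold change of -0.12 passed without FSS mouse 2 (-0.22, unadjusted p = 0.023 from limma) and was -0.060 without FSS mouse 3. The means of these hypothalamic genes over the 6 mice were above the dim limit of 6.21. Whether they are expressed in this tissue was not tested. Of the 41 genes, only Oprk1 and Galr1 had a mean below it. Of 12 hypothalamic markers, 6 were below the limit, 4 had a fold change above 0 and 8 below, and 1, Nkx2-2, was higher (0.18). That is 8.33% of the 12, against 2.49% of all rows.

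The extreme values were spread unevenly over the mice. FSS mouse 1 was the highest mouse for 13 of the 41 genes and the lowest for 1, whereas it was highest for 21.3% of all rows and lowest for 13.0%. Control mouse 2 was the highest for 11 of the 41 genes (20.2% of all rows) and the lowest for 7 (18.8%). Control mouse 3 was the highest for 1 gene (12.3% of all rows) and the lowest for 10 (19.3%). Control mouse 1 was the highest for 8 and the lowest for 12 (14.7% of all rows in each case). FSS mouse 2 was the highest for 4 (15.2% of all rows) and the lowest for 6 (17.9%). FSS mouse 3 was the highest for 4 (16.2% of all rows) and the lowest for 5 (16.4%). The median deviation of the 41 genes from their own means was 0.041 in FSS mouse 1, and from -0.015 to 0.025 in the other 5 mice. Without FSS mouse 1 or control mouse 2, 0 genes passed an unadjusted p of 0.05 in limma. Without control mouse 1, 3 were higher and 2 lower, and without control mouse 3, 1 was higher. The share of all rows past this threshold moved as well. It was 5.15% with all mice, 3.71% without FSS mouse 1 and 3.79% without control mouse 2. Without control mouse 1 it was 5.54%, and without control mouse 3 it was 6.61%.

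**Figure D5:**
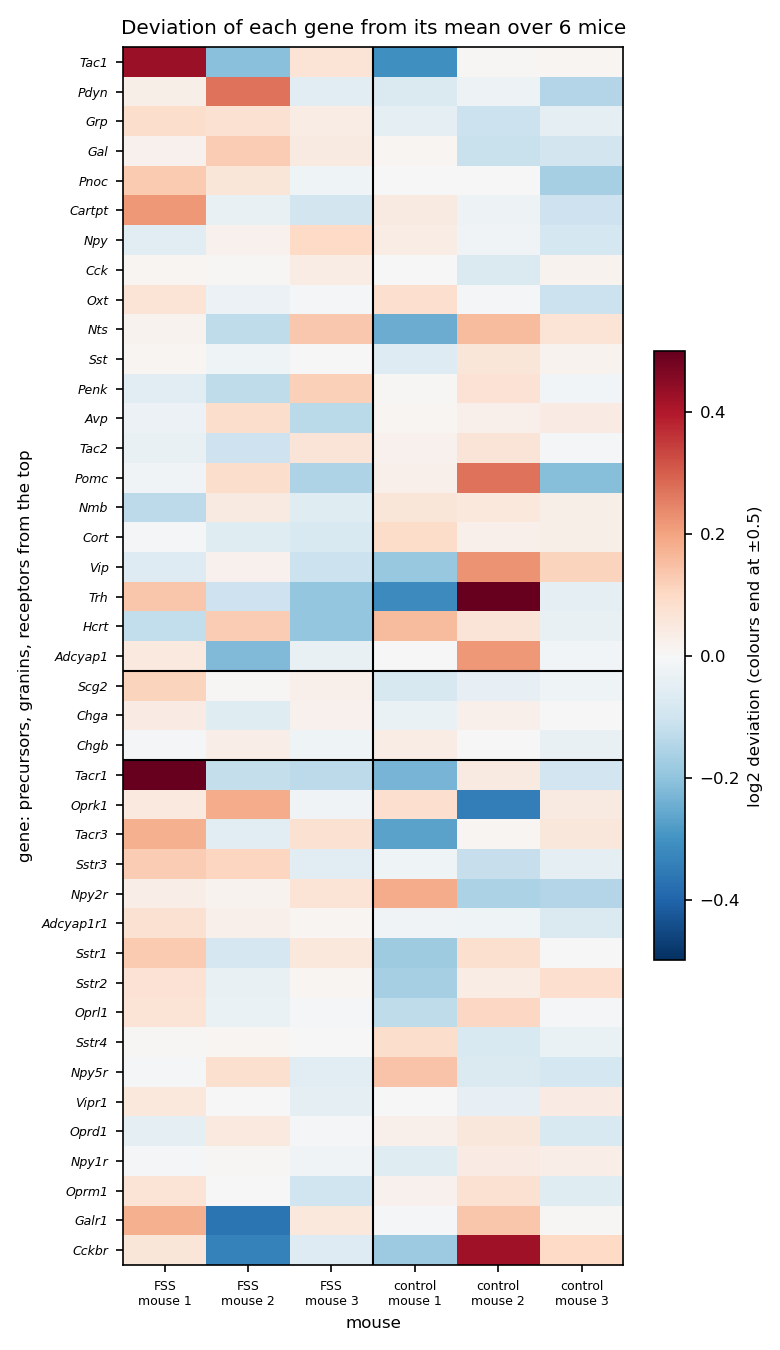
Deviation of the log2 RMA level of each gene from its own mean over 6 mice (colour, red for higher and blue for lower), with mice across and genes down in the order precursors, granins and receptors. Darkest red are Tac1 and Tacr1 in FSS mouse 1 and Trh and Cckbr in control mouse 2.

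Genes that cut, load and release peptides were taken as a further list. Of 17 measured genes of processing and dense-core vesicles, 0 passed an unadjusted p of 0.05 in limma and 0 passed after adjustment, with a median log2 fold change of 0.028 and 13 genes above 0. In the methods' t-test and in limma with a trended, robust variance 1 gene passed in each. The groups did not overlap for Pcsk5, a proprotein convertase, at 7.73, 7.79 and 7.74 in FSS mice and 7.71, 7.66 and 7.65 in control mice, nor for Cadps, which primes dense-core vesicles for release, at 11.28, 11.31 and 11.31 in FSS mice and 11.35, 11.32 and 11.34 in control mice. Pcsk5 was higher and Cadps lower in each FSS mouse, and neither passed (log2 fold change 0.079 and -0.035). In each direction 1 gene is 5.88% of the 17, against 6.02% of all rows above and 4.25% below. Pcsk2 had no row of its own.

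Of 41 further peptide receptors, 2 were higher in FSS mice, none was lower and 39 did not pass, with a median log2 fold change of 0.00073. The 2 are 4.88% of the 41, against 2.49% of all rows. The higher ones were Npy4r, a receptor of pancreatic polypeptide (log2 fold change 0.20, unadjusted p = 0.0438 from limma), and Brs3, an orphan relative of the bombesin receptors (0.21, unadjusted p = 0.0482 from limma). Both were dim. Npy4r was at 5.40, 5.37 and 5.39 in FSS mice and 5.35, 5.03 and 5.19 in control mice. Brs3 was at 6.03, 6.17 and 6.06 in FSS mice and 5.85, 6.05 and 5.72 in control mice. Neither could be tested without dim genes, and the count was 0 in the methods' t-test and 4 with quantile normalization.

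Markers of the cells that make these peptides were compared in the same way. Of 19 markers of GABAergic interneurons, 2 were higher, 0 were lower and 17 did not pass, with a median log2 fold change of 0.012. The 2 are 10.5% of the 19, against 2.49% of all rows. The higher ones were Nos1, the neuronal nitric oxide synthase (log2 fold change 0.13), and Ndnf, a marker of neurogliaform cells (0.16). The mean level of the interneuron markers was 9.08, 8.92 and 9.01 in FSS mice and 8.97, 9.01 and 8.98 in control mice, so FSS mouse 1 was highest and FSS mouse 2 lowest. Of 11 pyramidal cell markers, 7 lay above 0 and 4 below, and none passed (median 0.029). Both Prox1 and Slc17a7, the vesicular glutamate transporter of hippocampal principal cells, were well above the dim limit in each mouse, with a lowest level of 9.83 for Prox1 and of 12.79 for Slc17a7.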

How the data were processed

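Hippocampal RNA of 3 FSS and 3 control mice was hybridised to 1-colour Mouse Gene ST arrays. The authors deposited a table of log2 levels, obtained with RMA. Affymetrix Expression Console is the program listed in the submitters' notes, without a version. Background subtraction and quantile normalization in RMA bring the distributions of the arrays close together, so a shift common to all genes cannot be judged. The deposited levels still differed slightly between arrays. Their SD over all rows was 2.22 to 2.27 and their median 7.32 to 7.35. Of 28944 rows, 21789 carry 1 gene symbol, 1621 carry several and 5534 are unnamed here. All 41 genes matched RefSeq (GRCm38.p6) by gene ID with 0 changed symbols. No coordinates or sequences were used.

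The difference (FSS minus control) was estimated by the lmFit and eBayes functions of limma 3.58.1, run in R 4.3.3 on 21789 rows without covariates, and p was adjusted over all of them. The methods name a t-test in general and none for the arrays in particular. The genes, the lists and the rule for naming genes were chosen with earlier results of these data known. Values in each mouse are given for genes with an unadjusted p under 0.05 or groups without overlap, for the somatostatin, neuropeptide Y and opioid systems, for Cck, Vip, Adcyap1 and Tac2, and for the gene of largest SD; others were added where 1 mouse decided a value. Genes with an unadjusted p under 0.05 or no overlap were named from the lists of processing genes, degrading enzymes, further precursors and further receptors. Marker genes were named after their values were seen. Rows with a mean under the 95th percentile of receptor rows (6.21) are called dim. The fit was first tested on simulated data with known differences. The small number of arrays limits the precision. Alternatives were the methods' t-test, a trended and robust variance, quantile normalization, subtracted medians, no dim genes, the mean of all rows of a symbol, the replicate number or the array spread as a block, array weights, and leaving out each mouse.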

Additional observations from a re-analysis of the deposited data

How the results depend on the processing

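Over the 41 genes and 15 alternatives, 587 of 613 pairs of gene and alternative stayed on the same side of the threshold, 12 dropped below it and 14 passed it. The sign differed from that with all mice in 53 pairs of 21 genes, none of them past the threshold. The count of genes past an unadjusted p of 0.05, which was 2, was 1 with array weights and ranged from 0 to 5 without each mouse. The share of all rows past it was 5.15% with all mice, 6.64% with array weights and 3.71% to 7.60% without each mouse. At the study's thresholds the count of the 41 genes was 0 under every alternative run. The median log2 fold change of 0.013 ranged from -0.0096 to 0.038 without each mouse. It was 0.0010 with quantile normalization and 0.0023 with subtracted medians. For processing genes the count of 0 was 1 in the methods' t-test and 1 with a trended and robust variance, and ranged from 0 to 1 without each mouse. For further receptors the count of 2 was 0 in the methods' t-test, 0 with a trended and robust variance, 0 with subtracted medians, 0 without dim genes and 0 with array weights. It was 4 with quantile normalization, 4 with the replicate block and 5 when the spread of the arrays was the block, and ranged from 0 to 4 without each mouse. The cause of these changes was not tested, apart from the 11 further receptors that the filter on dim genes removes. The replicate number as a block left the count of the 41 genes at 2, with Grp (0.13, unadjusted p = 0.0334) and Pdyn (0.16, unadjusted p = 0.0436) past the threshold and Gal not (unadjusted p = 0.0871), all from limma. The deviations of same-numbered mice had correlations of -0.048, 0.14 and 0.24 for numbers 1, 2 and 3. Those of differently numbered mice ran from -0.26 to 0.13. With 3 mice a group these values cannot tell whether the numbers pair the mice. With the arrays split by their spread as a block, Grp was at 0.13 (unadjusted p = 0.0281), Gal at 0.15 (unadjusted p = 0.0283) and Pdyn at 0.23 (unadjusted p = 0.0103) in limma. Grp differed by 0.15 among the 3 arrays of narrow spread, which hold a single FSS mouse, and by 0.11 among the 3 of wide spread, which hold a single control mouse. The mean level of Gal, 6.31, lay just above the dim limit of 6.21, and 2 of the 41 genes lay below it.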

Other observations

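Peptides are cleared outside the cell by peptidases, and 11 measured peptide-degrading enzymes were compared in the same way. At an unadjusted p of 0.05 in limma 0 passed, and 0 passed after adjustment. Their median log2 fold change was 0.031, with 8 genes above 0 and 3 below. For 2 of them (18.2%) all FSS mice lay above all control mice, as for 6.02% of all rows. Thop1, thimet oligopeptidase, which cuts neurotensin and dynorphin fragments, was at 8.36, 8.35 and 8.35 in FSS mice and 8.24, 8.26 and 8.29 in control mice (log2 fold change 0.089, unadjusted p = 0.0589 from limma). Anpep, aminopeptidase N, which removes the first residue of enkephalins, was at 7.04, 7.18 and 7.04 in FSS mice and 6.98, 6.97 and 6.92 in control mice (log2 fold change 0.13, unadjusted p = 0.0502 from limma).

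Of 29 further peptide precursors, 1 passed as higher with FSS, none as lower and 28 not at all, with a median log2 fold change of -0.0017. That is 3.45% of the 29, against 2.49% of all rows. The higher one was Apln, the precursor of apelin, a peptide of endothelial cells and neurons, at 8.97, 8.71 and 8.78 in FSS mice and 8.67, 8.59 and 8.64 in control mice (log2 fold change 0.18, unadjusted p = 0.0407 and adjusted p = 0.943 from limma). FSS mouse 1 was the highest for Apln, and the groups did not overlap. Gnrh1, the precursor of gonadotropin-releasing hormone, was at 6.65, 6.77 and 6.72 in FSS mice and 6.84, 6.87 and 6.79 in control mice, with each FSS mouse below the controls (log2 fold change -0.12, unadjusted p = 0.0526 from limma). In each direction 1 gene without overlap is 3.45% of the 29, against 6.02% of all rows above and 4.25% below. Of 10 measured choroid plexus markers, 5 lay above 0 and 5 below, and 1, Ttr, the carrier of thyroid hormone, was higher (log2 fold change 0.95, unadjusted p = 0.0335 and adjusted p = 0.943 from limma). That is 10.0% of the 10, against 2.49% of all rows.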
